A study of Homo sapiens with 2 samples.

Results

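Enterocytes take up fat and vitamins from the gut lumen, and the gene set described here holds 10 genes of that work: CD36, FABP1, FABP2, RBP2, MOGAT2, DGAT1, MTTP, CUBN, AMN and PHGR1. The genes were chosen by symbol from the 36601 genes of the count tables. They were followed in single epithelial cells of colon organoids. The organoids were made from the iPS (induced pluripotent stem) cell line 1383D6, an established human line, by stepwise culture with activin A, then FGF2, then a colonic medium that included EGF, forskolin, PD98059 and 5-aza-2'-deoxycytidine, which both groups shared. The untreated group (CNT) was 1 library. The other group, 3CK, was 1 library of organoids kept for 8 days with the cytokines IL-1β, TNF-α and IFN-γ. Both came from the same iPS line, and the labels do not say how many organoid cultures were pooled. The series title names ulcerative colitis as the disease modelled, and the comparison of 3CK with CNT asks how these transcripts differ after exposure to inflammatory cytokines. With 1 library in each group there is no replicate check and no test. All intervals printed are 95% intervals and hold only the error of counting.

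A barcode was taken as an epithelial cell when it had at least 10000 unique molecular identifiers (UMIs), at least 2 EPCAM UMIs per 10000, and fewer than 5 UMIs per 10000 of the collagen transcripts COL1A1, COL1A2 and COL3A1 together. This gave 942 CNT cells of 1457 barcodes of that depth (64.7%) and 717 3CK cells of 995 (72.1%). Their summed depth was 68261829 UMIs in CNT and 68061987 in 3CK, with a median per cell of 68462.5 and 93963. Values for a library are CPM, the UMIs of a gene per 1000000 UMIs of all epithelial cells, and 3 UMIs correspond to 0.0439 CPM in CNT against 0.0441 CPM in 3CK. Shares of cells were taken after every cell had been thinned to 10000 UMIs, so that depth did not set them. Cells with collagen transcripts and under 2 EPCAM UMIs per 10000 (336 in CNT, 109 in 3CK, median depths 52420 and 77791 UMIs) are given beside the shares as cells of another type. No barcode was shared by the libraries.

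Fatty acids and monoglycerides that enter an enterocyte are bound in the cytosol by small fatty acid-binding proteins, built back into triglyceride at the endoplasmic reticulum and loaded onto apolipoprotein B to form chylomicrons. Retinol, the alcohol form of vitamin A, is bound by its own small cytosolic protein before it is esterified. Vitamin B12 bound to intrinsic factor enters by endocytosis through a receptor of 2 chains, cubilin and amnionless, which the distal small intestine and the kidney proximal tubule are known for. TTR, transthyretin, carries thyroid hormone and retinol-binding protein in plasma. It is a product of liver and yolk sac, and its transcript was abundant in these epithelial cells (66188 CPM in CNT, 19480 CPM in 3CK).

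The genes lie on separate loci, with coordinates from GENCODE v44 on GRCh38, the build named in the submitters' processing notes. FABP1 spans chr2:88122982-88128062 on the minus strand and FABP2 chr4:119317250-119322138 on the minus strand. RBP2 spans chr3:139452884-139480747 (minus) and MTTP chr4:99564081-99623997 (plus). CUBN covers chr10:16823966-17129811 (minus), a locus of 305846 bases, and AMN chr14:102922663-102933596 (plus). The others are CD36 at chr7:80369575-80679277 (plus), MOGAT2 at chr11:75717838-75732958 (plus) and PHGR1 at chr15:40351033-40356434 (plus). Exons of DGAT1 overlap exons of HSF1 on the opposite strand, exons of AMN overlap those of CDC42BPB on the opposite strand, and MTTP overlaps 1 unnamed antisense gene. Reads of these pairs may not be told apart, because the sources used here do not state whether strand was used in counting. DGAT1 and AMN each also share exonic bases with a same-strand gene model, and their counts are uncertain to that extent.

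RefSeq promoter sequence (GRCh38.p14) was matched for 7 of the 10 genes. DGAT1, MOGAT2 and PHGR1 were the ones without an entry. The 250 bases before the start site are shown, 5′ to 3′ on the strand of the gene, for the genes whose levels differed most between the libraries (RBP2, CUBN, FABP2, FABP1) and for AMN, which differed least. Capitals mark matches to any of the motifs searched, none of which overlapped another.
FABP1: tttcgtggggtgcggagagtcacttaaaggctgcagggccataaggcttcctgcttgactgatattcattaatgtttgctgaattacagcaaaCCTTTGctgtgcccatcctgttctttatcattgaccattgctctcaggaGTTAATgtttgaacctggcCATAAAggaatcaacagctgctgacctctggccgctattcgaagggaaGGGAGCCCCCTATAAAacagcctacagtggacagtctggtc
FABP2: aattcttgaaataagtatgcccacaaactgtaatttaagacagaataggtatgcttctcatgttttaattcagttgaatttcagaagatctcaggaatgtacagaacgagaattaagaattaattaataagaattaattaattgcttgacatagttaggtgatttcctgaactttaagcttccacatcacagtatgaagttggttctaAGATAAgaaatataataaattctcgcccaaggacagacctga
RBP2: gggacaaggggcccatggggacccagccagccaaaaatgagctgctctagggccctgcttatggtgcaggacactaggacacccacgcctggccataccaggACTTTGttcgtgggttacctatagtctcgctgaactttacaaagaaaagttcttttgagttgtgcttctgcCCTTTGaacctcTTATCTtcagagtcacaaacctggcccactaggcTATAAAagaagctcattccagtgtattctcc
CUBN: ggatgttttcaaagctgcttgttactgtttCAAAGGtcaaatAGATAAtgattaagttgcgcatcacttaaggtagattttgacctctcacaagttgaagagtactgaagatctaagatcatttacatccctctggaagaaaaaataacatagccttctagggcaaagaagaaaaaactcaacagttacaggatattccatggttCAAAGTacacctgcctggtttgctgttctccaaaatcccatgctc
AMN: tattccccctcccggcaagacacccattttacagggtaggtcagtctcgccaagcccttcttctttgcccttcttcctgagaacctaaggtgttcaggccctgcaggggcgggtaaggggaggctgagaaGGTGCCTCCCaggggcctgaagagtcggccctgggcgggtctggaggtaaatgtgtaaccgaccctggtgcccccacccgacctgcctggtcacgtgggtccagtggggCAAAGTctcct
The windows lie at chr2:88128063-88128312 (FABP1), chr4:119322139-119322388 (FABP2), chr3:139476517-139476766 (RBP2), chr10:17129812-17130061 (CUBN) and chr14:102922413-102922662 (AMN), and none overlaps an annotated exon. That of RBP2 lies inside the gene's annotated span, since GENCODE holds a longer transcript. Both strands were searched for 9 motifs. The CDX motif was CATAAA, the HNF1 half-site was GTTAAT, and the GATA factors were given AGATAA. Half-sites of the HNF4 type were CAAAGT or CAAAGG, the TATA box was TATAAA and the STAT motif TTCNNNGAA. In the interferon response element GAAA recurs after a gap of 2 bases, and in the NF-kB motif GGGA is followed by CC after 4 bases. The window of FABP1 held 5 matches, with TATAAA starting 31 bases before the start site and an NF-kB match directly before it, at 41 bases. The others were CATAAA at 89 bases, GTTAAT at 108 bases and an HNF4-type half-site at 157 bases. RBP2 had 4, with TATAAA also 31 bases before the start, a GATA match at 65 bases and HNF4-type half-sites at 77 and 148 bases. CUBN held HNF4-type half-sites 45 and 220 bases before the start and a GATA match at 208 bases. FABP2 had a GATA match at 42 bases, and AMN an HNF4-type half-site at 11 bases and an NF-kB match at 120 bases. Such short strings are common: among 35116 RefSeq promoter windows of this length, CATAAA was in 9.64%, GTTAAT in 6.23%, CAAAGT in 10.3%, CAAAGG in 15.4%, AGATAA in 9.17%, TATAAA in 10.7%, TTCNNNGAA in 6.57%, the interferon response element in 3.02% and the NF-kB motif in 22.6%. A match is a string of letters and no evidence that a factor binds there.

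All 10 uptake genes had a lower CPM in 3CK epithelial cells than in CNT, and 8 of the 10 were at least 2-fold lower. Of the 16729 genes that reached 1 CPM in CNT or 3CK, 11.8% were at least 2-fold lower and 8.91% at least 2-fold higher, and the median log2 ratio was 0.01. Of the uptake genes, 9 passed that limit of 1 CPM, and 7 of these were at least 2-fold lower, with a median log2 ratio of -2.75. The uptake genes were chosen with earlier results of these data known, so the comparison with all genes is a description only. The median of -2.75 is the ratio of CD36, which passed the limit in CNT alone (4.75 CPM, against 0.705 CPM in 3CK). With a limit of 10 CPM in either library, the median over 8 uptake genes was -2.39. MOGAT2 was the gene below the limit. The spread within the set was wide, from RBP2 at 61.0-fold lower to AMN at 1.43-fold lower. EPCAM, the gene of the gate, was 1126 CPM in CNT against 961 CPM in 3CK. For EPCAM the log2 ratio was -0.23.

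**Figure D1:**
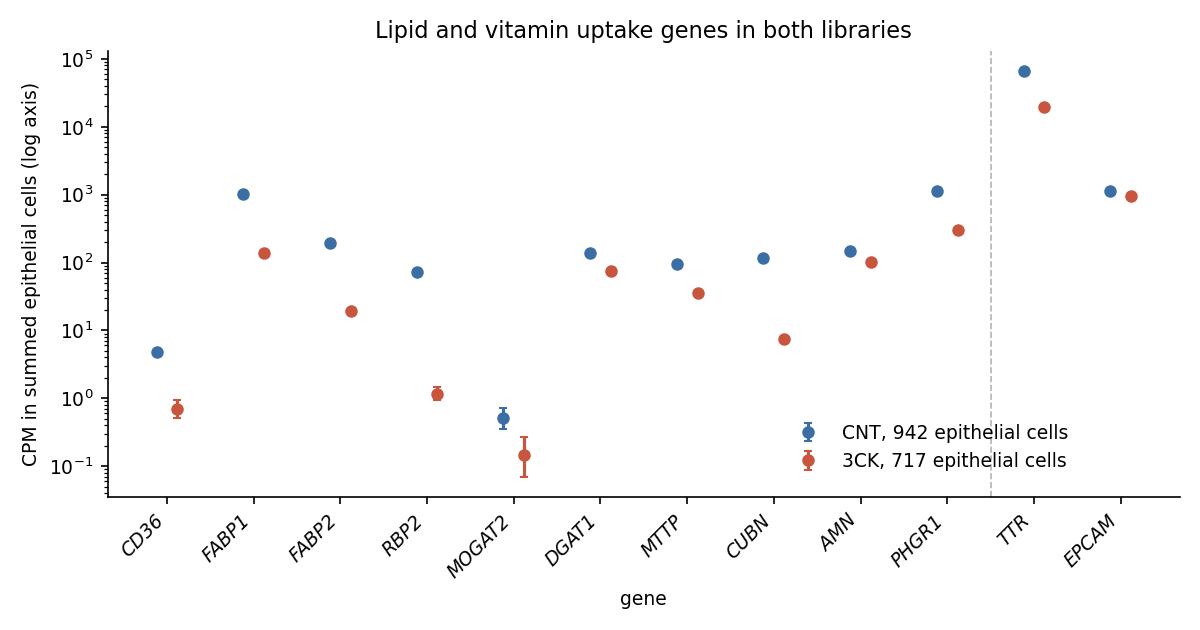
CPM on a log axis of the 10 uptake genes, TTR and EPCAM in summed epithelial cells of CNT (942 cells, blue) and 3CK (717 cells, red). Bars are exact Poisson intervals and are mostly smaller than the points, the red point lies under the blue one for every gene, and the gap is widest for RBP2 (71.7 against 1.18 CPM).

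The cytosolic binding proteins carried the widest differences together with CUBN. FABP1, the fatty acid-binding protein that liver and gut share, had 1031 CPM (70407 UMIs) without cytokines and 140 CPM (9534 UMIs) with them. The log2 ratio of FABP1 was -2.88 (-2.91 to -2.85). FABP2, the intestinal fatty acid-binding protein, was 192 CPM in CNT against 19.3 CPM in 3CK, a log2 ratio of -3.31 (-3.39 to -3.23). RBP2, the cellular retinol-binding protein of enterocytes, had 4897 UMIs in CNT and 80 in 3CK. Its CPM values were 71.7 and 1.18, and its log2 ratio -5.93 (-6.27 to -5.61).

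The binding proteins differed in how many cells carried them. FABP1 was detected in 67.4% of thinned CNT cells (interval 64.3 to 70.4%) and in 17.3% with 3CK (interval 14.6 to 20.3%), with collagen cells at 14.6% and 1.83%. FABP1 was therefore widespread in untreated epithelium and a minority transcript in the treated library, above the collagen-cell share in both. FABP2 was in 11.04% of CNT cells (interval 9.11 to 13.2%) and in 4.18% with 3CK (interval 2.84 to 5.92%). Collagen cells were at 3.57% in CNT and at 0 of 109 in 3CK (interval 0 to 3.33%), so the intervals of both cell types overlapped in 3CK. On the CPM scale FABP2 was 19.3 in 3CK epithelial and 0.420 in 3CK collagen cells. RBP2 was in 14.6% of CNT cells (interval 12.5 to 17.1%) and in 0.697% with 3CK (5 of 717). The collagen-cell share of RBP2 was 0.298% in CNT and 0.917% in 3CK (1 of 109 cells, interval 0.0232 to 5.01%). At this depth the 3CK shares of both cell types could not be told apart, while without thinning RBP2 was in 3.77% of 3CK epithelial cells, and its CPM was 1.18 in epithelial and 0.105 in collagen cells.

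Within each library the UMIs of the binding proteins were held by few cells. In CNT the 95 cells with most FABP2 held 99.01% of its UMIs, and for RBP2 such cells held 91.4%. The same number of cells held 61.2% of the FABP1 UMIs, and 34.0% of those of TTR. In 3CK the top 72 cells for FABP1 held 94.5% of its UMIs. Single CNT cells reached 17974 CPM of FABP1, 16666 CPM of FABP2 and 9494 CPM of RBP2, while the median cell was at 227 CPM for FABP1 and at 0 for the other two. The Poisson intervals of the sums do not hold this variation between cells. Cells that still carried FABP1 in 3CK had a mean of 8.91 UMIs of it per 10000, against 15.98 in CNT, so both the share of cells and the amount in a positive cell were lower. For FABP2 the means in positive cells were 5.9 in 3CK and 18.2 in CNT.

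**Figure D2:**
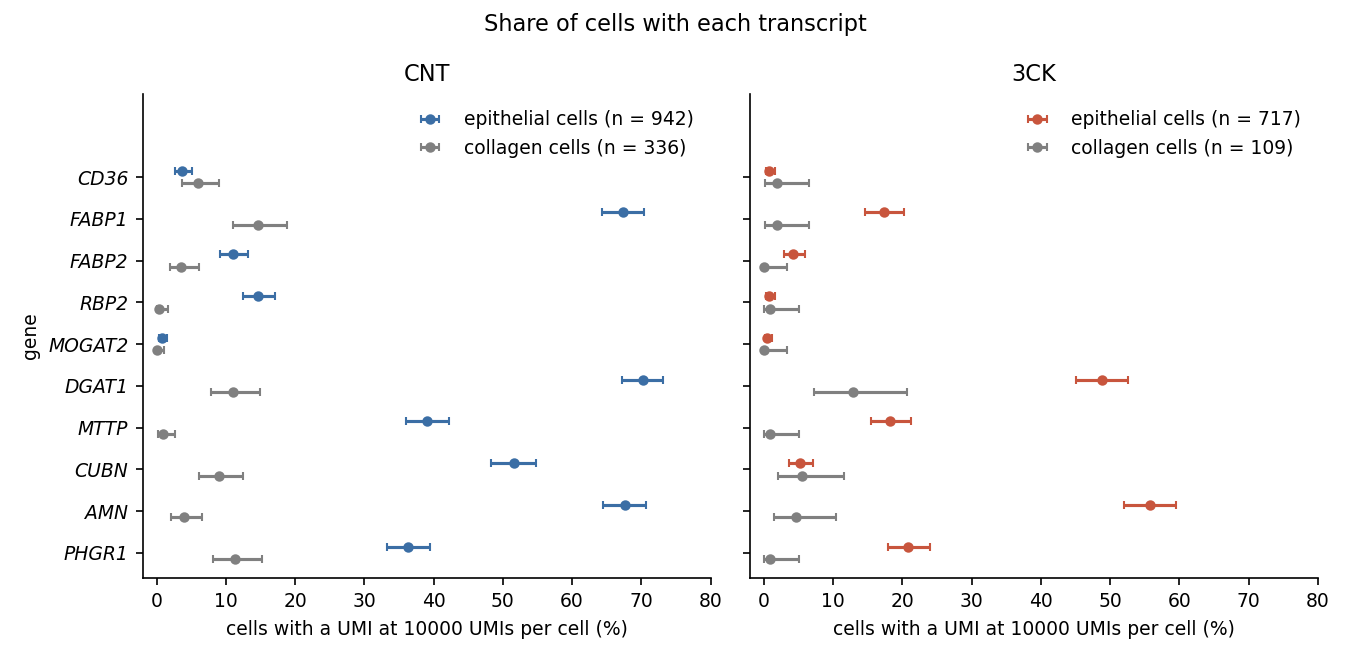
Share of cells (%) with at least 1 UMI of each gene after thinning to 10000 UMIs per cell, in epithelial cells (colour) and collagen cells (grey) of CNT (left) and 3CK (right), with exact binomial intervals. Epithelial shares of FABP1, DGAT1, CUBN and AMN lie above 50% in CNT, and in 3CK only that of AMN does (55.8%), while the 3CK exact binomial intervals of FABP2, RBP2, MOGAT2, CD36 and CUBN overlap those of collagen cells.

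Triglyceride synthesis was represented by MOGAT2, which joins a fatty acid to monoglyceride in the main intestinal route, and DGAT1, which adds the last fatty acid and also esterifies retinol. DGAT1 lies at chr8:144314584-144326910 (minus strand). MOGAT2 was barely detected, with 35 UMIs in CNT and 10 in 3CK (0.513 and 0.147 CPM), a log2 ratio of -1.80 (-2.98 to -0.76). Its shares of 0.743% and 0.418% of cells had overlapping intervals, and a difference in share was not detectable at this depth. DGAT1 was widespread in both libraries, at 138 CPM in CNT against 75.5 CPM in 3CK, a log2 ratio of -0.87 (-0.92 to -0.82). DGAT1 was detected in 70.2% and 48.8% of thinned cells, against 11.01% and 12.8% of collagen cells. The median cell was at 121 CPM of DGAT1 in CNT and 57.6 CPM in 3CK, so the difference was also present in the typical cell.

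MTTP, the transfer protein that loads lipid onto apolipoprotein B, was 95.03 CPM in CNT against 35.2 CPM in 3CK. The log2 ratio of MTTP was -1.43 (-1.50 to -1.37), and its share of cells was 39.1% and 18.3%, against 0.893% and 0.917% of collagen cells. MTTP thus lay between DGAT1 and the binding proteins in the size of its difference. CD36, a membrane receptor for long-chain fatty acids, was low throughout, at 4.75 CPM in CNT against 0.705 CPM in 3CK, a log2 ratio of -2.75 (-3.22 to -2.31). Its epithelial shares of 3.72% and 0.697% did not exceed those of collagen cells (5.95% and 1.83%). Per 1000 TTR UMIs, CNT collagen cells had 5.29 UMIs of CD36 and epithelial cells 0.0717, so collagen cells are no measure of background for CD36.

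The chains of the vitamin B12 receptor diverged. CUBN, which encodes cubilin, the ligand-binding chain, had 8023 UMIs in CNT and 506 in 3CK. This was 118 CPM and 7.43 CPM, 15.8-fold lower in 3CK, with a log2 ratio of -3.98 (-4.12 to -3.85). AMN, which encodes amnionless, the chain that anchors cubilin and carries it to the membrane, was 147 CPM in CNT against 103 CPM in 3CK. The log2 ratio of AMN was -0.51 (-0.56 to -0.47). CUBN was detected in 51.6% of thinned CNT cells and 5.16% of 3CK cells, with collagen cells at 8.93% and 5.50%. AMN was detected in 67.6% and 55.8%, with collagen cells at 3.87% and 4.59%. Without thinning, AMN was in 92.9% of CNT and 94.1% of 3CK cells, the only uptake gene whose share was not lower in 3CK on that count. In collagen cells the summed CPM of CUBN ran the other way, at 9.23 in CNT against 12.4 in 3CK. Its log2 ratio there was 0.42 (0.08 to 0.76), while its share of cells was not higher. Of the 118 UMIs in 3CK collagen cells, the 11 cells with most held 87.3%.

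Of the uptake genes past 1 CPM, CUBN and CD36 had their highest CNT level outside the epithelial cells. CNT barcodes with at least 10000 UMIs and neither marker (110 barcodes) had a median of 35134 UMIs, against 68462.5 in epithelial cells. Their median mitochondrial share was 6.32%, against 2.47%. In these barcodes CUBN was 363 CPM (346 to 381), above the 118 CPM of epithelial cells, and 71 of the 110 barcodes held it. CD36 was 7.71 CPM there and 6.63 CPM in collagen cells, against 4.75 CPM in epithelial cells. The order for CUBN in CNT was then barcodes under 10000 UMIs (166 CPM), epithelial cells, barcodes with both markers (50.8 CPM) and collagen cells (9.23 CPM). FABP1 had another order in CNT: 1031 CPM in epithelial cells, 866 CPM with both markers, 492 CPM under 10000 UMIs, 32.6 CPM with neither marker and 15.1 CPM in collagen cells. In 3CK the barcodes with neither marker (156) had 4.95 CPM of CUBN.

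PHGR1, a small proline-, histidine- and glycine-rich protein of the intestinal epithelium whose function is little known, was 1139 CPM in CNT against 305 CPM in 3CK. Its log2 ratio was -1.90 (-1.92 to -1.88). PHGR1 was in 36.3% of CNT and 20.8% of 3CK cells, with collagen cells at 11.3% and 0.917%. Most of its UMIs lay in few cells, 87.3% in the top 95 CNT cells and 95.3% in the top 72 3CK cells. Across the set, the share of thinned cells was lower in 3CK for 10 of 10 genes, and the intervals did not overlap for 9 of them, all but MOGAT2. Shares of cells were not compared in this way over all genes, so these counts have no background beside them. The median CNT cell held 4 of the 10 transcripts and the median 3CK cell held 1. No uptake transcript was found in 3.40% of CNT cells and 17.4% of 3CK cells, and 5 or more were found in 31.2% and 3.49%.

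Collagen cells of CNT carried some of these transcripts, and their ratio to TTR was taken in both cell types. Per 1000 TTR UMIs, CNT epithelial cells had 15.6 UMIs of FABP1 and collagen cells 12.0. For PHGR1 the values were 17.2 and 15.0, for MTTP 1.44 and 1.18, and for FABP2 2.90 and 1.65. These ratios were close between the cell types for FABP1, PHGR1 and MTTP. By contrast, DGAT1 was 2.08 in epithelial and 13.2 in collagen cells, and CUBN 1.78 and 7.37. How much free RNA of the cell suspension added to the shares was not tested.

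Genes of this set were found together in some cells more than in others. Among CNT cells with RBP2, 41.3% (33.0 to 49.99) also had FABP2, against 5.85% (4.33 to 7.70) of cells without RBP2, and 57 cells had both. The Pearson correlation of FABP2 with RBP2 over the 942 cells was 0.75. PHGR1 was in 82.7% of FABP2-positive CNT cells and 30.5% of the others, and FABP1 in 94.2% and 64.1%. Of the 35 CNT cells with CD36, 20 had FABP2, and CD36 was found in 19.2% of FABP2-positive and 1.79% of FABP2-negative cells. MTTP was in 51.0% of FABP1-positive cells and 14.3% of FABP1-negative cells. FABP2, RBP2, PHGR1 and CD36 thus marked overlapping cells, within a wider field of cells with FABP1 and MTTP.

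CUBN was found in 48.1% of FABP2-positive and 52.0% of FABP2-negative CNT cells, with overlapping intervals, and in 62.3% (53.7 to 70.4) of RBP2-positive and 49.8% (46.2 to 53.3) of RBP2-negative cells, with intervals apart. PHGR1 was in 34.4% of CUBN-positive and 38.4% of CUBN-negative cells, also overlapping. CUBN went with MTTP, in 69.0% of MTTP-positive and 40.4% of MTTP-negative cells, and with FABP1, in 59.5% of FABP1-positive and 35.2% of FABP1-negative cells. CUBN and AMN, whose products form 1 receptor, were detected together in 352 of the 942 CNT cells. AMN was in 72.4% of cells with CUBN and 62.5% of those without. In 3CK, 37 cells had CUBN and 400 had AMN. Among the 30 3CK cells with FABP2, 24 had PHGR1 (80%, interval 61.4 to 92.3%) and 18 had FABP1 (60%), against 18.2% and 15.4% of the other cells, while 2 had RBP2. Cells with the FABP2, FABP1 and PHGR1 combination were thus still present in 3CK, mostly without RBP2. Shares taken at a fixed depth do not rise with the size of the library, but the pairs share cells and are not independent of each other.

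**Figure D3:**
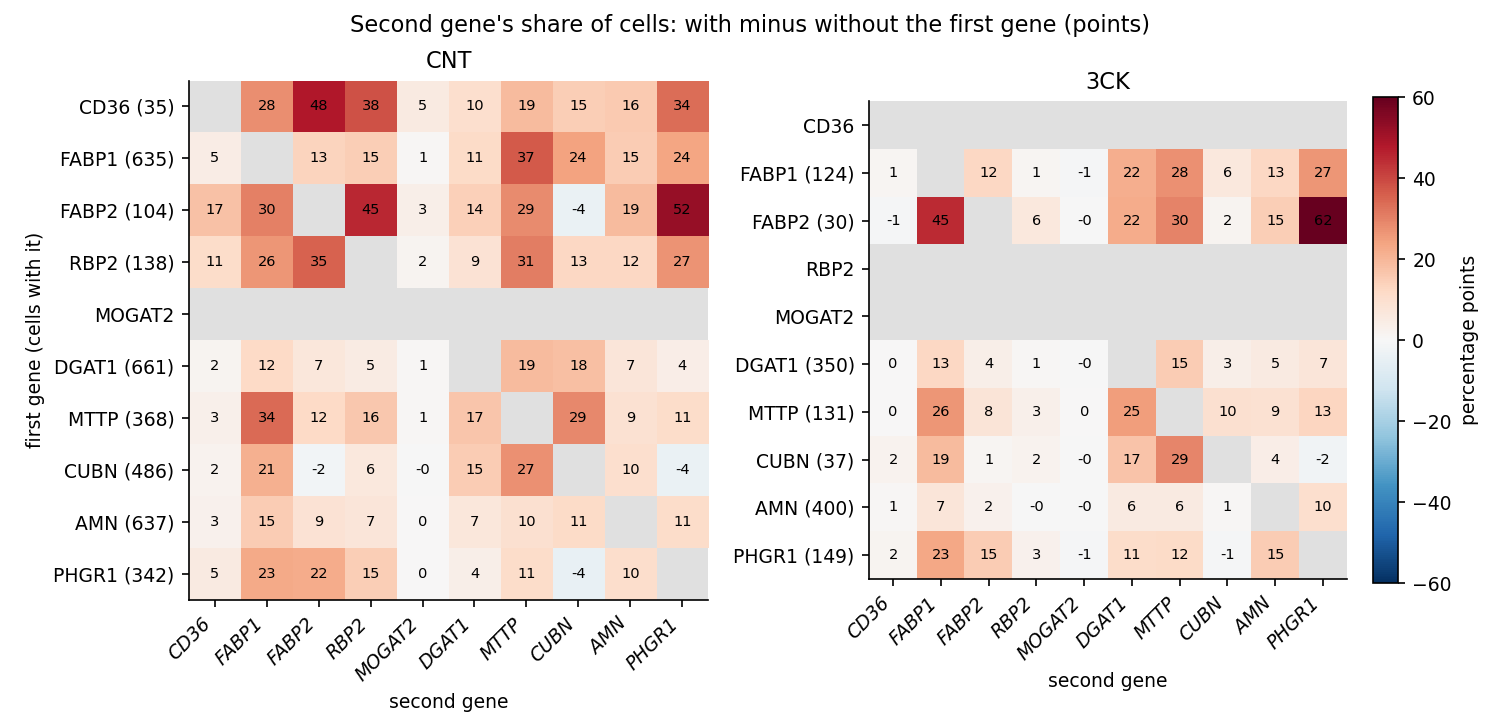
Difference in percentage points between the share of cells with the second gene (columns) among cells with and without the first gene (rows, number of cells in brackets), in thinned epithelial cells of CNT (left) and 3CK (right). Grey rows had under 20 cells with the first gene. In CNT the FABP2 row is highest at PHGR1 and RBP2 and near 0 at CUBN.

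Across the 942 CNT cells, the genes most like each uptake gene, the uptake genes themselves left out, were sought among 2939 genes with at least 50 CPM, by Pearson correlation of log-scaled UMIs per 10000. FABP1 was closest to DHRS11, a short-chain dehydrogenase (0.58), ANPEP, the brush-border aminopeptidase N (0.56), and MEP1A, a meprin protease subunit (0.55). Outside the set, FABP2 was closest to the membrane mucin MUC13 (0.53), the apolipoprotein APOA4 (0.49) and the tetraspanin TSPAN8 (0.44). Within the set its correlations with RBP2 (0.75) and PHGR1 (0.56) were taken on thinned counts, so the values cannot be ranked together. RBP2 shared APOA4 (0.50) and MUC13 (0.44) with it and added OAT, ornithine aminotransferase (0.40). PHGR1 was closest to TSPAN8 (0.70), the adhesion molecule CEACAM6 (0.68) and MUC13 (0.61). CUBN had a different set of neighbours, RGN, GLUD1 and APOB (0.62 each). MTTP was closest to its partner APOB (0.58), then GLUD1 (0.50) and TMEM220 (0.48). APOB (0.50), PPP1R16A (0.49) and REEP6 (0.47) were closest to DGAT1. For AMN the closest were APOA4 (0.43), ANKRD9 (0.38) and GLTPD2 (0.38). The points are cells of 1 library and share its sequencing run.

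Most of these neighbours were lower in 3CK, as the uptake genes were, and only MUC13 and CEACAM6 were higher. MUC13 was 165 CPM in CNT against 348 CPM in 3CK, and CEACAM6 was 267 and 734 CPM, while TSPAN8 was 403 and 321 CPM. The log2 ratios of MUC13 and CEACAM6 were 1.08 and 1.46, beside -3.31 for FABP2 and -1.90 for PHGR1. The neighbours of CUBN were lower in 3CK, with RGN at 56.2 and 4.26 CPM (log2 ratio -3.72) and GLUD1 at 138 and 41.5 CPM (-1.74). APOB, the backbone of chylomicrons, was 678 CPM in CNT against 141 CPM in 3CK, a log2 ratio of -2.27.

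Co-expression with TTR was read in 3 ranges, under 50, 50 to 300 and 300 or more TTR UMIs per 10000, with TTR itself left out of the CPM total. The median epithelial cell had 538 TTR UMIs per 10000 in CNT (4.05 to 2725 from the lowest to the highest cell) and 106 in 3CK (1.19 to 1857). The ranges held 81, 212 and 649 CNT cells and 221, 348 and 148 3CK cells. Near the limits, 10 CNT and 47 3CK cells lay within 10% of 50, and 47 and 36 within 10% of 300. In CNT, 9 of the 10 uptake genes were higher in the highest than in the lowest range and 7 were at least 2-fold higher. Among all genes with at least 1 CPM in either range, 5.22% were at least 2-fold higher in that comparison, with a median log2 ratio of -0.60. MOGAT2 was under 1 CPM in both ranges, and its log2 ratio was 0.56 (-1.45 to 3.68). In 3CK 8 of 9 genes with a ratio were higher and 7 were at least 2-fold higher, against 3.54% of all genes.

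The binding proteins had the widest span in CNT. FABP1 was 196 CPM in the lowest range, 823 CPM in the middle and 1292 CPM in the highest. FABP2 was 14.8, 328 and 193 CPM, and RBP2 9.55, 86.3 and 82.0 CPM, both with their low value only under 50 TTR UMIs. PHGR1 followed the same form, at 268, 1494 and 1253 CPM. The lowest range thus stood apart, and the middle and highest ranges were alike or reversed in order for FABP2, RBP2, PHGR1 and MTTP (32.0, 125 and 103 CPM). AMN stepped up through all ranges, at 66.8, 139 and 174 CPM, and DGAT1 at 71.0, 130 and 162 CPM. CUBN spanned less, at 96.6, 130 and 128 CPM (log2 ratio of highest to lowest 0.41, 0.28 to 0.54), and it was detected in 33.3%, 47.6% and 55.2% of the cells of the ranges. CD36 was 5.05, 9.22 and 3.90 CPM, and its ratio of highest to lowest range had an interval that included 0 on the log2 scale.

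With each library divided by TTR into 3 equal groups of cells in place of the fixed limits, 9 of 10 genes were again higher in the highest CNT group than in the lowest, but 1 was at least 2-fold higher, FABP1 with a log2 ratio of 1.04. Apart from that of FABP1, the 2-fold differences in CNT therefore rested on the 81 cells with under 50 TTR UMIs. Of these cells, 7 had FABP2 and 5 had RBP2. In the equal groups of 3CK, 8 of 9 genes with a ratio were higher in the highest group. Of the 9 genes, 4 were at least 2-fold higher and 1 at least 2-fold lower. No share of all genes was taken for the equal groups. On thinned counts the Pearson correlation with TTR across CNT cells was 0.25 for FABP1 and 0.05 for FABP2 and RBP2, beside 0.61 for APOA1. FABP2 and RBP2 were detected in 11.04% and 14.6% of these cells and APOA1 in 99.7%, so the values cannot be compared directly. They are given as a description only. Cells with FABP1 had a median of 586 thinned TTR UMIs in CNT and cells without it 417. For FABP2 the medians were 580.5 with and 525 without. Of the 57 CNT cells with both FABP2 and RBP2, 55 had at least 50 TTR UMIs per 10000 (96.5%, interval 87.9 to 99.6), as did 91.1% of the other cells. Nearly all cells with FABP2 and RBP2 were thus TTR-positive, and so were nearly all cells without them.

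**Figure D4:**
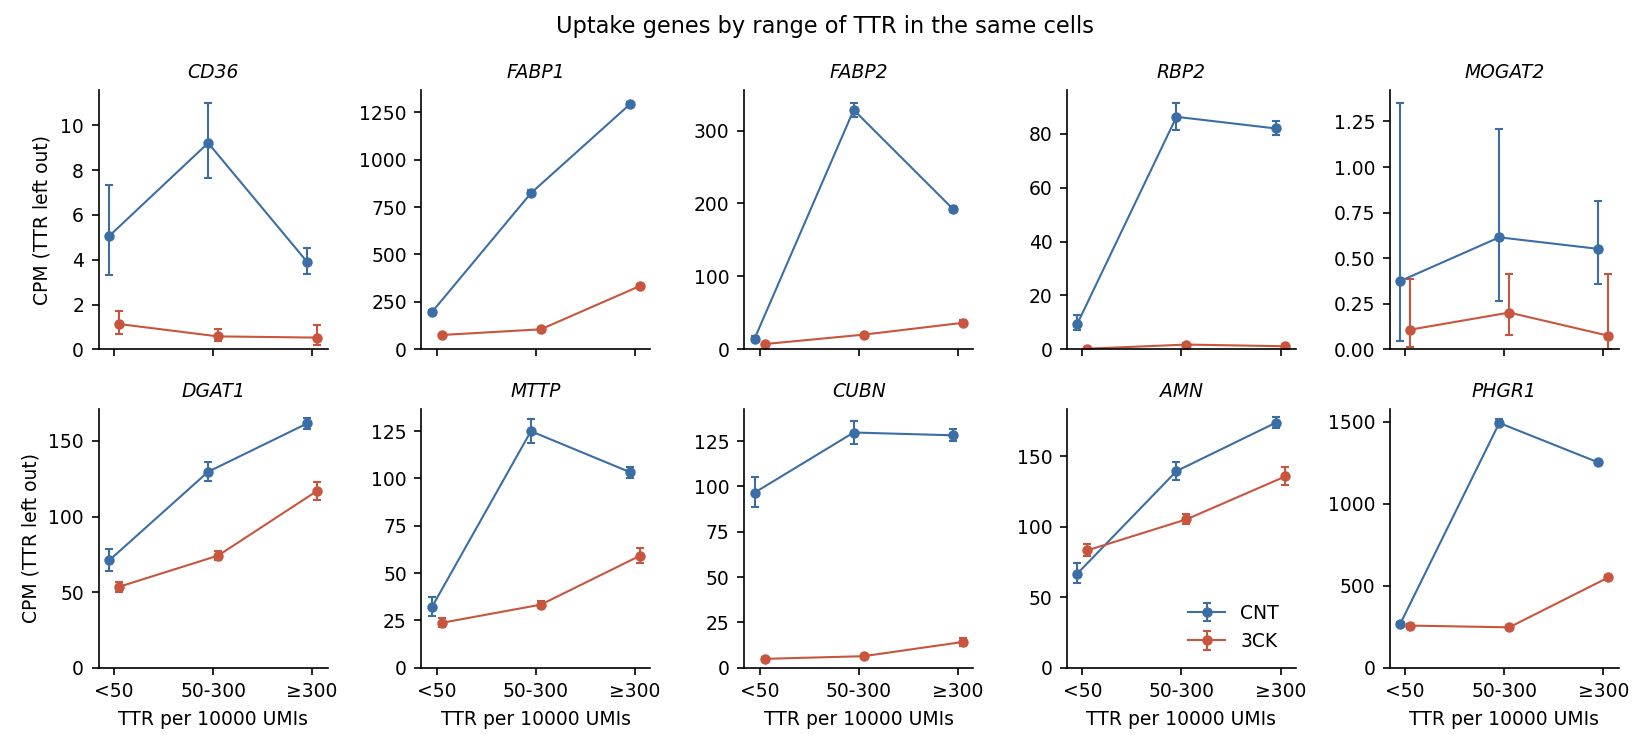
CPM of each uptake gene (TTR left out of the total, linear axes from 0) in cells with under 50, 50 to 300 and 300 or more TTR UMIs per 10000, in CNT (blue) and 3CK (red), with exact Poisson intervals. The 3CK line lies below the CNT line at every range for CUBN and RBP2, and the lines meet in the lowest range for PHGR1 and cross there for AMN.

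Since fewer 3CK cells were rich in TTR, 3CK was also compared with CNT within each range. In cells with 50 to 300 TTR UMIs, 8 of 10 uptake genes were at least 2-fold lower in 3CK, against 25.3% of all genes (median log2 ratio -0.40). With 300 or more, 7 of 10 were at least 2-fold lower, against 15.2% of all genes (median -0.24). Both counts hold MOGAT2, which was under 1 CPM in these ranges, while the shares of all genes are of genes past 1 CPM. MOGAT2 had 8 UMIs in CNT and 7 in 3CK in the middle range (log2 ratio -1.61, -3.30 to 0.05). In the highest range it had 25 and 1. Under 50, 5 of the 9 genes with a ratio were at least 2-fold lower, against 17.7% (median -0.17). CUBN and RBP2 were far lower in 3CK in every range, with log2 ratios of -4.29, -4.34 and -3.17 for CUBN and -5.47, -5.62 and -6.20 for RBP2 from the lowest to the highest range. FABP1 had -1.37, -2.97 and -1.95, and FABP2 -1.05, -4.03 and -2.41. PHGR1 was level in the lowest range, with 268 CPM in CNT against 258 CPM in 3CK and a log2 ratio of -0.06 (-0.14 to 0.03), and lower in the others. AMN was higher in 3CK in the lowest range, at 66.8 CPM in CNT against 83.2 CPM in 3CK (log2 ratio 0.32, 0.15 to 0.49), and lower above it.

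Within the 3CK library, cells were also placed in 3 groups of 239 cells by their UMIs of 15 interferon-response genes (median 31, 61 and 114 UMIs in thinned cells). FABP1 was 328 CPM in the group with the fewest such UMIs, 94.6 CPM in the middle and 34.7 CPM in the group with the most. CUBN had 15.6, 4.77 and 3.52 CPM, MTTP 56.7, 38.2 and 15.7 CPM, and FABP2 33.2, 26.6 and 1.64 CPM. AMN spanned less, at 124, 100.0 and 91.9 CPM, as did EPCAM at 1025, 991 and 900 CPM. DGAT1 was 109, 69.7 and 55.5 CPM, and PHGR1 394, 384 and 165 CPM. RBP2 was highest in the middle group, at 1.16, 2.36 and 0.0818 CPM. CD36 was 1.26, 0.172 and 0.777 CPM, and MOGAT2 had 4, 2 and 4 UMIs. TTR was 31129, 17710 and 12160 CPM in the same groups, so TTR fell with FABP1, CUBN and MTTP as the interferon-response UMIs rose. The parts of TTR and of the interferon response in this order were not tested. Across the 717 cells the correlations were weak, at most -0.20 in size, for FABP1 and for CUBN. They were -0.17 for MTTP, -0.15 for DGAT1, -0.06 for AMN and -0.05 for FABP2 and PHGR1. RBP2 had -0.04, CD36 -0.02 and MOGAT2 0.001.

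Other genes of lipid and vitamin handling were read from lists, each compared with the background of 11.8% lower and 8.91% higher by 2-fold among all genes. Of 13 genes of chylomicron and lipoprotein assembly, 12 were lower in 3CK and 7 were at least 2-fold lower, with a median log2 ratio of -1.04. Its most abundant gene was APOA1, at 11358 and 5364 CPM, and P4HB, the partner of MTTP in the transfer complex, was the gene that was higher, at 670 and 778 CPM. Of 18 glycerolipid and lipid droplet genes, 8 were lower and 10 higher, 5 at least 2-fold lower and 1 at least 2-fold higher, with a median of 0.05. They ranged from CIDEB, a droplet protein involved in lipoprotein lipidation (34.5 and 6.80 CPM, log2 ratio -2.34), to MGLL, monoglyceride lipase (58.8 and 198 CPM, 1.75), and AGPAT2, an acyltransferase, was the most abundant (180 and 224 CPM). Of 14 genes of fatty acid entry and activation, 9 were lower and 4 of them 2-fold, with a median of -0.18. DBI, the acyl-CoA-binding protein, was 417 and 276 CPM, ACSL4, an acyl-CoA synthetase, 9.54 and 15.7 CPM, and FABP4, the fatty acid-binding protein of adipocytes, had 259 UMIs in CNT, lying in few cells (0.318% of thinned cells), and 2 in 3CK.

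Retinoid genes were mostly lower, 16 of the 18 that passed 1 CPM and 9 of them at least 2-fold, with a median of -0.99. This list holds TTR itself and DGAT1. RDH5, a retinol dehydrogenase, was 26.1 and 3.91 CPM (log2 ratio -2.74), and CRABP2, a retinoic acid-binding protein, was higher in 3CK at 27.4 and 78.6 CPM (1.52). Of 9 sterol and bile acid genes, 5 were lower and 4 higher, 3 at least 2-fold lower and 2 at least 2-fold higher, with a median of -0.84. ABCA1, a cholesterol exporter, was 155 and 81.0 CPM, and SLC10A2, the ileal bile acid transporter, had 118 UMIs in CNT and 1 in 3CK. Of 20 genes for B12 and other vitamins, 13 were lower, 3 of them 2-fold, and 7 were higher, with a median of -0.36. LRPAP1, a chaperone of endocytic receptors, was 206 and 149 CPM. SLC23A1, a vitamin C transporter, was 3.14 and 0.206 CPM (log2 ratio -3.93), and TCN1, which encodes the B12 carrier haptocorrin, was higher at 7.76 and 28.2 CPM (1.86). The lists of sterol, fatty acid entry and glycerolipid genes did not share the one direction of the uptake genes, while lipoprotein assembly and retinoid genes were mostly lower.

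**Figure D5:**
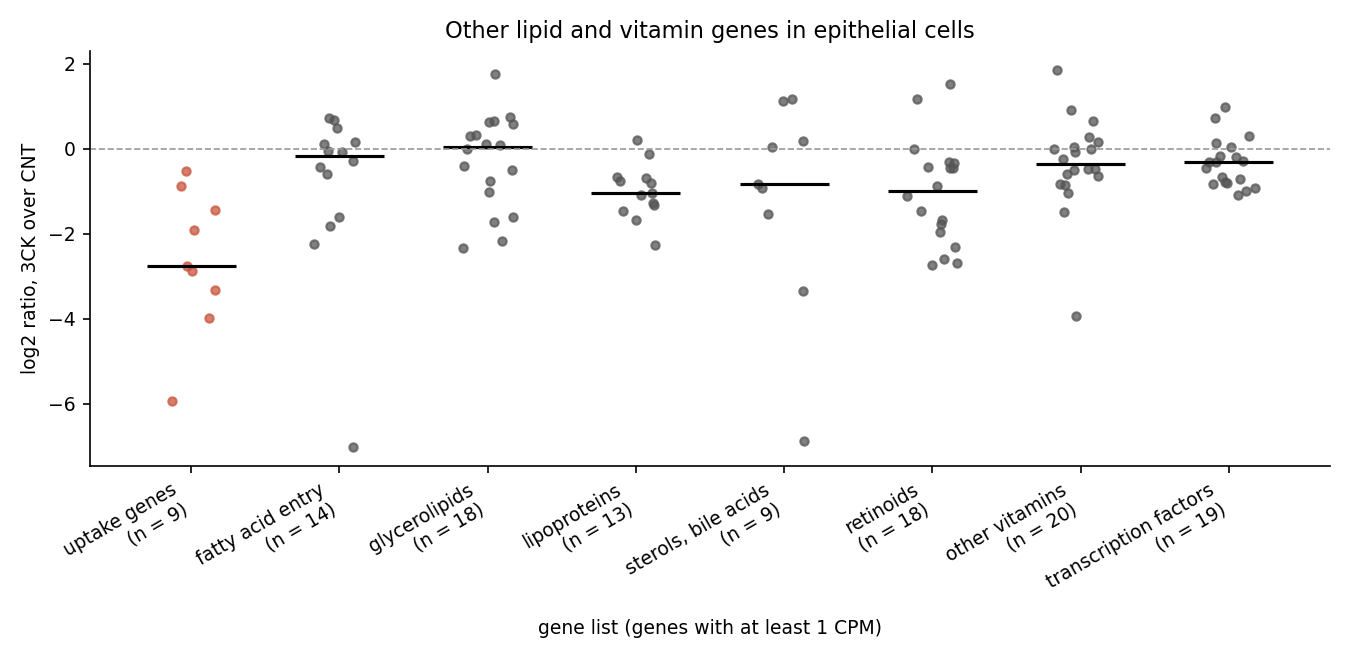
log2 ratio of 3CK over CNT in summed epithelial cells for genes that reached 1 CPM in CNT or 3CK. Each point is a gene, the bar is the median of its list, and the dashed line marks equal CPM. The medians lie between -2.75 for the uptake genes (red) and 0.05 for glycerolipid genes. DGAT1 is in the uptake and the retinoid list.

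Enterocyte transcription factors differed less. Of the 19 past 1 CPM, 14 were lower and 5 higher, 1 was at least 2-fold lower and none at least 2-fold higher, with a median log2 ratio of -0.32. Over all genes past 1 CPM, 11.8% were at least 2-fold lower and 8.91% at least 2-fold higher. GATA6 was 108 CPM in CNT against 57.7 CPM in 3CK (-0.91), MAF 41.1 and 19.3 CPM (-1.09) and ELF3 51.9 and 103 CPM (0.99). Values chosen after they were seen are log2 ratios of -0.78 for HNF4A, 0.31 for HNF4G and 0.03 for CDX2.

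Some marker lists of cell types were lower in 3CK as the uptake genes were, and others were not. Among all genes past 1 CPM, 11.8% were at least 2-fold lower in 3CK and 8.91% at least 2-fold higher. All 12 enterocyte markers were lower in 3CK, 10 of them at least 2-fold, with a median of -1.58. Their summed level was 6246 CPM in CNT against 2569 CPM in 3CK, most of it APOA4. All 12 hepatic markers were lower, 9 of them at least 2-fold, with a median of -1.47. Their summed level was 103613 and 33810 CPM, most of it TTR (66188 and 19480 CPM). APOA1 and APOA2 are both in this list and in that of lipoprotein assembly. Of 9 colonocyte markers past 1 CPM, 6 were at least 2-fold lower and 3 at least 2-fold higher, from SLC26A3, a colonic chloride exchanger (6.61 and 0.764 CPM), to CEACAM7 (0.0586 and 6.73 CPM), and their summed level was 335 and 268 CPM. The label of colon epithelium thus stood beside hepatic-marker transcripts at a far higher summed level. Mesenchymal markers summed to 1327 and 944 CPM, and 9 of 10 were lower. Also lower were all 5 endocrine markers past 1 CPM, 2 of them at least 2-fold. All 6 kidney and yolk sac markers past 1 CPM were lower, 4 of them at least 2-fold, and that list holds CUBN and AMN. Epithelial markers summed to 11586 and 22276 CPM, with 5 of 8 higher in 3CK. All 5 cycling markers were higher, at a summed 40.1 and 55.7 CPM, as were both neural markers past 1 CPM. None of these lists had a marker at 0 in both libraries. The part of these marker differences in the lower uptake genes was not tested, and in summed cells a change in the mix of cells and less RNA per cell cannot be told apart.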

How the data were processed

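Single-cell RNA was measured in 2 libraries, 1 CNT and 1 3CK, about 8300 cells being loaded for each with the 10x Genomics 3' chemistry, per the labels. The authors deposited UMI counts for each gene in each barcode, without normalisation, made with Cell Ranger 7.1.0 on GRCh38, per the submitters' processing notes. The annotation is not given in the sources used here.

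Barcodes with at least 500 genes and at most 20% mitochondrial UMIs were kept, and doublets scored with Scrublet (scanpy 1.11.5, Python 3.11.15) were removed at 0.8% per 1000 barcodes. This left 2487 CNT and 1398 3CK barcodes. UMIs of epithelial cells were summed, scaled to CPM and compared as log2 ratios. The collagen limit of the gate was read as UMIs per 10000. Intervals (95%) were exact Poisson for sums and Clopper-Pearson for shares. For a ratio, the Clopper-Pearson interval of the fraction of a gene's UMIs that lay in 3CK was converted to log2. No ratio was formed where both counts were 3 or fewer, and a count of 0 was read as at most 3. The ratio and its interval were tested on simulated data. PCR copies were collapsed by UMI, and the intervals do not hold the variation between cells, cultures or libraries.

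The genes named are the 10 uptake genes, TTR, EPCAM, and for each list the most abundant gene and those with the largest and smallest ratio among genes past 1 CPM. The 3 genes most correlated with each uptake gene past 10 CPM are named as well, and a few others where the text says so. A gene that this rule selected is left out of the text and is not reported here. The uptake genes, lists and markers were chosen with earlier results of these data known, and the motifs after the sequences were seen. Alternatives concerned the barcode filters, doublets, gate, scaling (among them TMM factors of edgeR 4.0.16), weight of cells, TTR ranges and thinning.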

Additional observations from a re-analysis of the deposited data

Results flagged for a closer look

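CUBN differed in direction between cell types. In collagen cells its log2 ratio of 3CK over CNT was 0.42, from 188 UMIs in 336 CNT cells and 118 UMIs in 109 3CK cells, while in epithelial cells it was -3.98. The collagen-cell UMIs lay in few cells, since the 11 3CK cells with most CUBN held 87.3% of them. The difference between the cell types was not tested.

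AMN differed in direction between TTR ranges. In cells with 300 or more TTR UMIs per 10000 its log2 ratio was -0.36, and in cells with under 50 it was 0.32, where 81 CNT cells held 357 UMIs and 221 3CK cells 1548. The difference between the ranges was not tested.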

How the results depend on the processing

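The count of uptake genes at least 2-fold lower in 3CK was 8 in the analysis as reported and in all other alternatives except cells with under 50 TTR UMIs (5) and cells with 300 or more (7). The median log2 ratio (-2.75) moved to -2.03 without the epithelial gate, to -1.05, -2.97 and -1.95 in cells with under 50, 50 to 300 and 300 or more TTR UMIs, and to -2.07 when the 3CK ranges were weighted by the CNT share of cells. The cause was not tested. Under the remaining alternatives (barcode filters, doublets, other gate limits, TMM, a total without mitochondrial, ribosomal and the 50 most abundant genes, equal weight of cells, and other minimum levels) it lay between -2.87 and -2.33. The log2 ratio of AMN reversed to 0.32 in cells with under 50 TTR UMIs. The total without abundant genes shifted every log2 ratio by -0.12, relative to which the directions of the uptake genes held. Without thinning, the share of cells was lower for 9 of 10 genes. The 3CK counts of MOGAT2 (10 UMIs), CD36 (48) and RBP2 (80) limit what can be said of them within cells. No paired analysis was possible because each group has 1 library.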

Other observations

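In CNT barcodes with neither marker, CUBN UMIs were spread over 71 of 110 barcodes, and the 11 with most of it held 48.5%. The same barcodes had 34.7 CPM of MTTP, 53.1 CPM of AMN, 60.6 CPM of DGAT1, 32.6 CPM of FABP1 and 4065 CPM of TTR. In barcodes with both markers, FABP1 was 866 CPM in CNT (69 barcodes) and 7.14 CPM in 3CK (9 UMIs in 13 barcodes), and TTR was 56303 and 19881 CPM.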
